A study of Mus musculus with 62 samples.

Results

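The transcripts described here encode 39 proteins of the endoplasmic reticulum that admit, fold, check and dispose of secreted and membrane proteins. They were taken by gene symbol from a list of named genes and not by a rule on measured values. The list was chosen with earlier results of these data known. All 39 were found among the 47643 gene symbols of the table, and all 39 were among the 12160 genes tested. They fall into 5 role classes, with 11 chaperones and co-chaperones, 4 disulfide isomerases, 5 stress sensors and transcription factors, 8 genes of misfolded protein degradation, and 11 genes of translocation and signal peptide removal.

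Liver RNA was sequenced from female mice that received melanoma cells of a cachectic kind (CAC) or of a non-cachectic kind (NCAC), or a mock injection (Con), at an age of 2 months. Cachexia is the wasting of muscle and fat that can accompany a tumour. Livers were sampled 2, 4, 6 and 8 weeks after injection, with 7 libraries in the last CAC group and 5 in each other group, 62 in all. The sample labels give the strain as C57BL6/J, whereas the series' design text gives NCI Ath/nude, and the extraction text refers to LLC cells, which belong to no group here. Each group's melanoma cells are named only by whether they cause cachexia, and no allele or further agent is given for any group. Values are TPM, the length-scaled share of all transcripts, so sequencing depth is unknown and every library sums to 1e+06. Libraries are described as biological replicates. In RNA from whole liver, fewer cells of a type and less RNA per cell cannot be told apart.

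Hepatocytes secrete most plasma proteins, and these enter the endoplasmic reticulum through the Sec61 channel while they are being made. Inside, chaperones such as BiP (Hspa5) and the isomerases that pair cysteines fold them, and proteins that fail are returned to the cytosol and degraded. The sensors IRE1 (Ern1), PERK (Eif2ak3) and ATF6 read the folding load: IRE1 splices the Xbp1 transcript, and spliced XBP1 and cleaved ATF6 bind promoter elements of chaperone genes in what is called the unfolded protein response. CREB3L3 (CREBH) is a liver-enriched relative of ATF6 known for acute phase and lipid genes.

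The element through which ATF6 and XBP1 are known to act on chaperone genes, the ER stress response element (ERSE), is spelled CCAAT, then any 9 bases, then CCACG. It was searched on both strands from 250 bases before to 50 bases after each annotated start in the RefSeq promoters of GRCm38.p6. A match lay in the promoters of 9 of the 31 members with an entry (29.0%), against 39 of all 32851 promoters (0.119%). For this and the motifs below, members are counted by gene (31 genes with 33 promoters) and the background by promoter (32851 promoters of 27025 genes). A match is a description of letters and not a shown binding site. The matches are printed because they show what these promoters share, with the fixed letters in capitals and the strand of the match read 5′ to 3′.
Hspa5, chr2:34772025-34772043, 65 bases before the start: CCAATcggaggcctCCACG
Hsp90b1, chr10:86705533-86705551, 107 bases before: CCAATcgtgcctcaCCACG
Hsp90b1, chr10:86705638-86705656, 212 bases before: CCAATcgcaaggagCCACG
Calr, chr8:84847075-84847093, 162 bases before: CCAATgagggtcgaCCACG
Canx, chr11:50325800-50325818, 145 bases before: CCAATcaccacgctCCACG
Creld2, chr15:88819520-88819538, 126 bases before: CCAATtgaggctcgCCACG
Dnajc3, chr14:118937827-118937845, 105 bases before: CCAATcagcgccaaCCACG
Pdia6, chr12:17266491-17266509, 98 bases before: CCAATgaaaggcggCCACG
Syvn1, chr19:6046532-6046550, 44 bases before: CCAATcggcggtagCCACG
Derl3, chr10:75893242-75893260, 156 bases before: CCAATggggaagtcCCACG

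The shorter ERSE-II, spelled ATTGG, any 1 base, CCACG, matched in 2 of the 31 members against 12 of all promoters (0.0365%), and the XBP1 element TGACGTGG matched in 0 of the 31 members against 222 of all promoters (0.676%). The ERSE-II matches were in Herpud1, 52 bases before the start, and in Dnajb11, 7 bases after it.
Herpud1, chr8:94386377-94386387: ATTGGgCCACG
Dnajb11, chr16:22857852-22857862: ATTGGcCCACG

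The 250 bases before the start are shown for the chaperone gene that varied most between animals, Creld2, and for the transcription factor gene that rose in CAC liver, Xbp1. Capitals in Creld2 mark the fixed letters of its ERSE match, which lies on the opposite strand. The Xbp1 window held no match to any of the 3 motifs, which says only that these letters are not in it.
Creld2, chr15:88819396-88819645, plus strand: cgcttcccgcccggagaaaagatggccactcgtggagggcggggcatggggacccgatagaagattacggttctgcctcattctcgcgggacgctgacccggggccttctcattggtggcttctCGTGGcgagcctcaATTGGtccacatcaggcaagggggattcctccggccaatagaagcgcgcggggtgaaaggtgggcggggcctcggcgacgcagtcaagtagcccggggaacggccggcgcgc
Xbp1, chr11:5520391-5520640, plus strand: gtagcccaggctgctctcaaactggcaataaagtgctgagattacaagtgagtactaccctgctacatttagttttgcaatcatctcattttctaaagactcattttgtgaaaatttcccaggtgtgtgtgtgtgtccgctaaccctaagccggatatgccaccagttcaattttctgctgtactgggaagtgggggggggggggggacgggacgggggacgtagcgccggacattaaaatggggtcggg
No promoter entry was held for Atf6, Derl1, Hyou1, Manf, Sec11c, Sec61a1, Spcs3 and Ssr2.

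In TPM, a scale that accounts for transcript length, the members spanned a wide range of levels. The disulfide isomerase P4hb, also a subunit of prolyl hydroxylase and of the triglyceride transfer complex, was highest, with a median of 814 TPM over the 62 libraries (564 to 1096). Next came the lectin chaperone calreticulin (Calr, 415 TPM), the HSP90 of the reticulum (Hsp90b1, 391 TPM) and Hspa5 (259 TPM). Creb3l3, at a median of 177 TPM, and Xbp1, at 111 TPM, stood well above the sensors Atf6 (15.7 TPM), Ern1 (13.8 TPM) and Eif2ak3 (5.46 TPM). The lowest member was Derl3, a channel component of degradation, at 0.861 TPM.

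A shift of the median gene and markers of other cells bear on the counts at 6 and 8 weeks. The median log2 difference of all tested genes between CAC and Con was -0.12 at 6 weeks and -0.21 at 8 weeks, and between CAC and NCAC it was -0.26 at 8 weeks. Values are therefore given as deposited and, where the call or direction differs, after median-of-ratios rescaling, which brings these 8-week medians to -0.00 and -0.01. In addition, 9 libraries held at least 100 TPM of the pancreatic enzyme Ctrb1, 2 of them Con at 8 weeks (replicate 2 at 1906 TPM and replicate 4 at 282 TPM) and 0 of them CAC at 8 weeks. All 17 pancreatic acinar markers and all 9 tested plasma and B cell markers had lower calls in CAC livers at 8 weeks, compared with Con. Markers of other liver cell types had calls as well, beside 5.87% of all tested genes called higher and 35.3% lower in this comparison. As deposited, 5 of 8 Kupffer cell markers and 3 of 3 tested T and NK cell markers were called lower (median log2 differences -0.74 and -0.84). Of 7 sinusoidal endothelial markers 3 were called higher and 1 lower. Of 6 stellate cell and fibroblast markers 0 were higher and 1 lower, and of 3 tested cholangiocyte markers 1 was higher and 2 lower. The part of these cells in the members' differences was not tested. The summed acinar markers ran from 18.8 to 8000 TPM in Con and from 4.03 to 15.1 TPM in CAC. The defining hepatocyte markers were present throughout, with a summed level of 101760 to 164296 TPM. Of 8 tested hepatocyte markers 1 was called higher and 0 lower at 8 weeks.

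Xbp1, whose spliced product drives chaperone and secretory genes, was the member that rose earliest and at most time points. It rose in CAC against Con at 4, 6 and 8 weeks and was not called at 2 weeks. TPM count spliced and unspliced Xbp1 transcripts alike here, so splicing itself was not measured. The gene lies at chr11:5520659-5525893 (mm10, plus strand).

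At 4 weeks the 5 Con libraries held 125, 95.7, 91.4, 80.5 and 67.7 TPM of Xbp1, and the 5 CAC libraries 113, 114, 162, 136 and 162 TPM. Con replicate 1 lay above the 2 lowest CAC libraries, and the other 4 Con libraries lay below all CAC libraries. The log2 difference was 0.58 ± 0.14 (SE; limma adjusted p = 0.011).

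At 6 weeks Con held 96.9, 102, 93.0, 81.6 and 95.4 TPM, and CAC held 161, 121, 131, 198 and 149 TPM. All CAC libraries lay above all Con libraries, and the log2 difference was 0.67 ± 0.14 (limma adjusted p = 0.00048). NCAC at 6 weeks, at 95.8, 116, 94.4, 92.2 and 108 TPM, also lay wholly below CAC, and Xbp1 was called higher in CAC than in NCAC (0.56 ± 0.14, limma adjusted p = 0.0034).

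At 8 weeks the lowest, median and highest of the 7 CAC libraries were 128, 136 and 164 TPM, against 115, 122, 85.2, 121 and 110 TPM in Con, and the groups did not overlap. The difference was 0.36 ± 0.13 (limma adjusted p = 0.021). Against NCAC, at 134, 96.1, 145, 112 and 132 TPM, CAC was not called at 8 weeks as deposited (0.20, 95% interval -0.06 to 0.46), but it was after rescaling (0.51, limma adjusted p = 0.0014). At 2 weeks the CAC minus Con difference was 0.21 with 5 libraries each, and NCAC minus Con was not called at any week.

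The Xbp1 calls at 4, 6 and 8 weeks held after rescaling, without the 9 pancreatic libraries, and with both changes together. The call at 4 weeks was lost without Con replicate 5 or CAC replicate 3 (adjusted p up to 0.086), and when weeks were fitted separately (adjusted p = 0.16). The call at 8 weeks was lost without Con replicate 3 (0.27, limma adjusted p = 0.11).

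**Figure D1:**
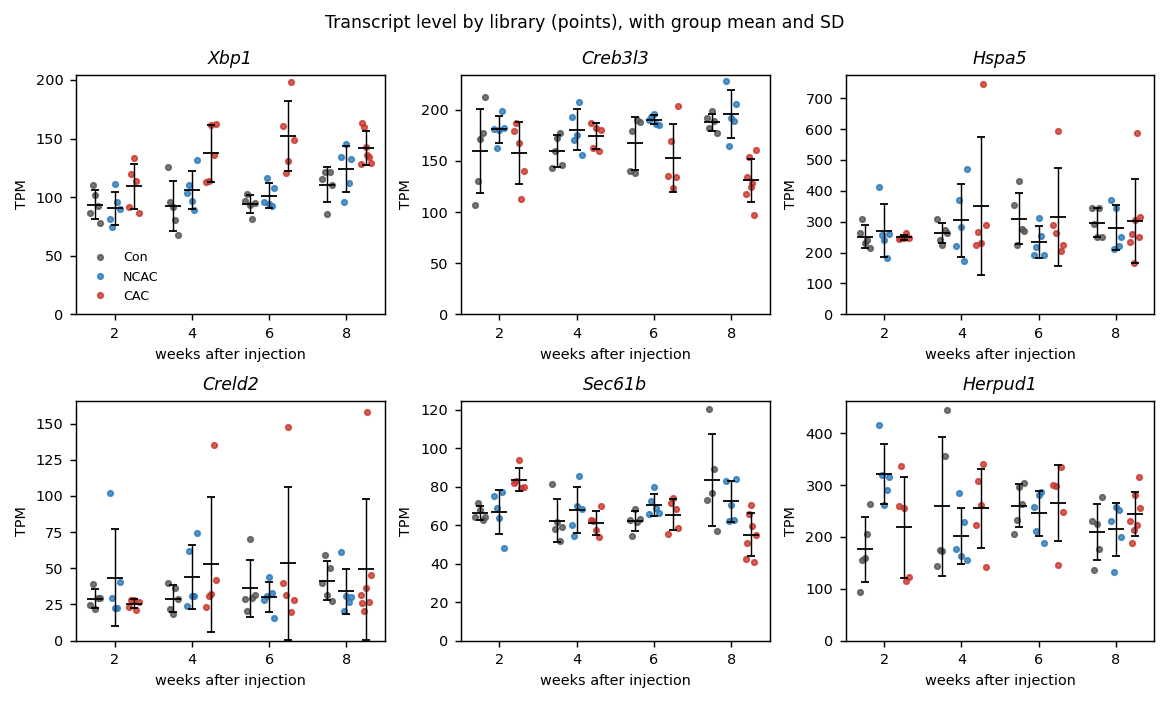
Level in TPM (vertical axis, from 0) of 6 members in each library against weeks after injection, with Con, NCAC and CAC side by side; black marks give each group's mean and SD. Xbp1 in CAC lies wholly above Con at 6 and 8 weeks and overlaps it at 4 weeks, Creb3l3 in CAC lies below both other arms at 8 weeks, and single CAC libraries of Hspa5 and Creld2 stand far above the rest at 4, 6 and 8 weeks.

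Creb3l3 moved the other way at 8 weeks as deposited. Con held 192, 182, 199, 189 and 177 TPM, NCAC held 228, 165, 192, 189 and 205 TPM, and the 7 CAC libraries ran from 97.4 through a median of 128 to 161 TPM. CAC lay wholly below both other arms. The log2 difference was -0.53 ± 0.12 from Con (limma adjusted p = 0.00062) and -0.59 ± 0.12 from NCAC (limma adjusted p = 0.00017).

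The fall of Creb3l3 against Con was called without the pancreatic libraries (-0.54, limma adjusted p = 0.0036) and whichever single library was left out. After rescaling, which sets the median gene near 0, the difference from Con was -0.28 and not called (limma adjusted p = 0.073). Against NCAC Creb3l3 was not called lower after rescaling either. Its CAC minus Con difference was -0.13 at 6 weeks and not called. The gene lies at chr10:81084324-81098874 (mm10, minus strand).

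For the other sensors the calls depended on setting. Ern1 in CAC at 8 weeks ran from 8.69 through 11.1 to 13.1 TPM, against 19.5, 7.17, 17.5, 13.8 and 19.5 TPM in Con. Con replicate 2, the library highest in Ctrb1, had the lowest Ern1 of the group. With it the difference was -0.41 (limma adjusted p = 0.086). Without that 1 library it was -0.64 (limma adjusted p = 0.0062), without the pancreatic libraries -0.75 (limma adjusted p = 0.00069), which with rescaling as well was -0.49 (limma adjusted p = 0.018). Against NCAC it was called lower as deposited (-0.58 ± 0.19, limma adjusted p = 0.012), though not after rescaling (-0.29, limma adjusted p = 0.21) or without NCAC replicate 5 (-0.48, limma adjusted p = 0.057). Atf6 was called in CAC against Con at 8 weeks only after rescaling (0.36, limma adjusted p = 0.037), and Eif2ak3 was not called in any comparison under these 4 settings.

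The chaperones as a class showed few calls. Of 11, 0 were called higher and 1 lower in CAC against Con at 8 weeks, when 5.87% of all tested genes were called higher and 35.3% lower. Hspa5, the main Hsp70 chaperone of the lumen, held 345, 292, 251, 344 and 249 TPM in Con and 166, 260 and 589 TPM as the lowest, median and highest in CAC, with wide overlap. Its log2 difference was -0.05 as deposited, with a 95% interval of -0.55 to 0.44, and 0.20 after rescaling, and it was not called at any week.

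Canx, encoding the membrane lectin calnexin, was the chaperone called lower. At 6 weeks CAC held 98.7, 107, 130, 96.5 and 107 TPM against 150, 112, 152, 130 and 139 TPM in Con, and only CAC replicate 3 reached into the Con range. The difference was -0.34 ± 0.11 at 6 weeks (limma adjusted p = 0.038) and -0.29 ± 0.11 at 8 weeks (limma adjusted p = 0.023).

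At 8 weeks CAC ran from 84.2 through 96.6 to 116 TPM, overlapping Con (92.7 to 142 TPM) and below all NCAC libraries (126 to 144 TPM; -0.47 ± 0.11, limma adjusted p = 0.00032). After rescaling the Canx differences were -0.21, -0.04 and -0.17 and none was called. Against Con the 6-week call was also lost when Con replicate 1, 3 or 5 or CAC replicate 1, 2, 4 or 5 was left out (adjusted p up to 0.11), and the 8-week call when Con replicate 1, 4 or 5 or CAC replicate 1 was (adjusted p up to 0.11).

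None of the co-chaperones described here was called at 8 weeks as deposited. Dnajc3, which couples to BiP and also restrains eIF2 alpha kinases, was 0.24 higher in CAC (95% interval -0.04 to 0.52, not called) and rose by 0.49 after rescaling (limma adjusted p = 0.0072). Without CAC replicate 3, the lowest Dnajc3 library of its group, it was called as deposited too (0.35, limma adjusted p = 0.025). Dnajb9, a BiP partner that restrains IRE1, differed by 0.31 (-0.28 to 0.91), and the Hsp110-type chaperone Hyou1 by -0.37 (-1.01 to 0.28). These intervals do not exclude sizeable differences in either direction for Dnajb9 and Hyou1.

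Among the 4 isomerases, P4hb stood out at 6 weeks. CAC held 920, 964, 1044, 1029 and 967 TPM, above every library of Con (762 to 908 TPM) and of NCAC (718 to 819 TPM). The difference was called against NCAC (0.34 ± 0.11, limma adjusted p = 0.025), except when NCAC replicate 1 or 2 or CAC replicate 3 or 4 was left out (adjusted p up to 0.069). Against Con it was 0.27 ± 0.11 and not called as deposited (limma adjusted p = 0.069), and it was called after rescaling (0.40, limma adjusted p = 0.0045).

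At 8 weeks P4hb in CAC ran from 564 through 770.5 to 1096 TPM and no longer stood apart from Con (-0.03, 95% interval -0.23 to 0.17; 0.22 after rescaling, not called). Pdia6, which works with BiP, was called lower at 8 weeks (-0.37 ± 0.14, limma adjusted p = 0.025) but not after rescaling (-0.12) nor without the pancreatic libraries (-0.31, limma adjusted p = 0.14). Its call was also lost without Con replicate 1, 2 or 4 or CAC replicate 1 or 6 (adjusted p up to 0.083). Pdia4 differed by 0.11 (-0.30 to 0.52).

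Of the 8 degradation genes 1 was called higher and 1 lower in CAC against Con at 8 weeks, beside 5.87% and 35.3% of all genes. Edem1, a lectin that hands misfolded glycoproteins to degradation, held 53.7, 39.1, 43.2, 48.8 and 51.8 TPM in Con and 44.0, 58.5 and 68.5 TPM as the lowest, median and highest in CAC. One CAC library lay inside the Con range and the rest above it. The difference was 0.28 ± 0.12 (limma adjusted p = 0.045), 0.53 after rescaling (limma adjusted p = 0.0004), and 0.21 and not called without the pancreatic libraries (limma adjusted p = 0.17). The call was lost without any 1 of Con replicates 2, 3 and 4 and CAC replicates 1, 2, 4, 5 and 6 (adjusted p up to 0.15).

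Derl2, a derlin of the retrotranslocation channel, ran from 15.9 through 17.1 to 17.5 TPM in CAC at 8 weeks. Con held 26.5, 17.8, 18.3, 19.7 and 19.0 TPM, and the groups did not overlap. The difference was -0.23 ± 0.09 (limma adjusted p = 0.038), and after rescaling it was 0.01 and not called. Without Con replicate 1, the highest, it was -0.13 (limma adjusted p = 0.26), and the call was lost too without Con replicate 4 or CAC replicate 1, 3 or 6.

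Herpud1, a membrane partner of the degradation ligase, varied within every arm. Con at 4 weeks alone ran from 145 to 445 TPM, and CAC at 8 weeks from 188 to 315 TPM against 136 to 277 TPM in Con (0.25, 95% interval -0.26 to 0.76). Derl3 ran from 0.185 to 4.46 TPM over all libraries and differed by -0.50 (-1.1 to 0.09), or -0.02 without the pancreatic libraries. Its highest level in Con at 8 weeks, 4.14 TPM, was in replicate 2.

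The translocation class had the lowest median log2 difference of the 5 classes at 8 weeks, -0.22. Of its 11 genes 4 were called lower and 0 higher in CAC than in Con, and 10 of 11 differences were below 0. This count is near the background, since 35.3% of all genes were called lower, and the class median is close to the -0.21 of all genes. After rescaling 0 of the 11 were called lower and 1 higher. Sec61b, a small subunit of the Sec61 channel, held 73.2, 121, 76.8, 89.3 and 57.1 TPM in Con and 40.9, 55.1 and 70.5 TPM as the lowest, median and highest in CAC. Con replicate 5 lay within the CAC range and the other Con libraries above it.

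The Sec61b difference was -0.57 ± 0.13 (limma adjusted p = 0.00038). It was -0.34 without the pancreatic libraries (limma adjusted p = 0.047), -0.33 after rescaling (limma adjusted p = 0.064) and -0.06 with both (limma adjusted p = 0.79). Con replicate 2 held the highest Sec61b, Sec61g, Sec11c and Ssr4 of all 62 libraries and also the highest Ctrb1, and the part of pancreatic or plasma cell transcripts in these differences was not tested beyond these values.

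Sec11c, a catalytic subunit of the signal peptidase, differed by -0.36 ± 0.10 (limma adjusted p = 0.0021), and Ssr2, a subunit of the translocon-associated protein complex, by -0.33 ± 0.12 (limma adjusted p = 0.023). The third Sec61 subunit, Sec61g, differed by -0.34 ± 0.12 (limma adjusted p = 0.025). None of these 3 was called after rescaling (-0.13, -0.08 and -0.09) or without the pancreatic libraries (-0.20, -0.14 and -0.09). The Ssr2 call was also lost without Con replicate 2 or 4 or CAC replicate 1 (adjusted p up to 0.11), whereas the calls of Sec61b and Sec11c as deposited held whichever single library was left out.

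Counted over the whole set, CAC against Con gave 2 members higher and 8 lower at 8 weeks, beside the 5.87% and 35.3% of all tested genes. The number lower was 5 without Con replicate 1 or CAC replicate 6 and 3 without Con replicate 4 or CAC replicate 1. The 39 members had a median log2 difference of -0.08 against -0.21 for all genes. After rescaling 6 members were called higher (Xbp1, Edem1, Dnajc3, Atf6, Derl1 and Spcs1) and 0 lower, with 12.8% and 13.9% of all genes called. Their median was then 0.17 against -0.00. Without the pancreatic libraries 1 was called higher and 5 lower (4.84% and 34.3% of all genes), and with both changes 5 higher and 1 lower (10.2% and 9.41%).

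**Figure D2:**
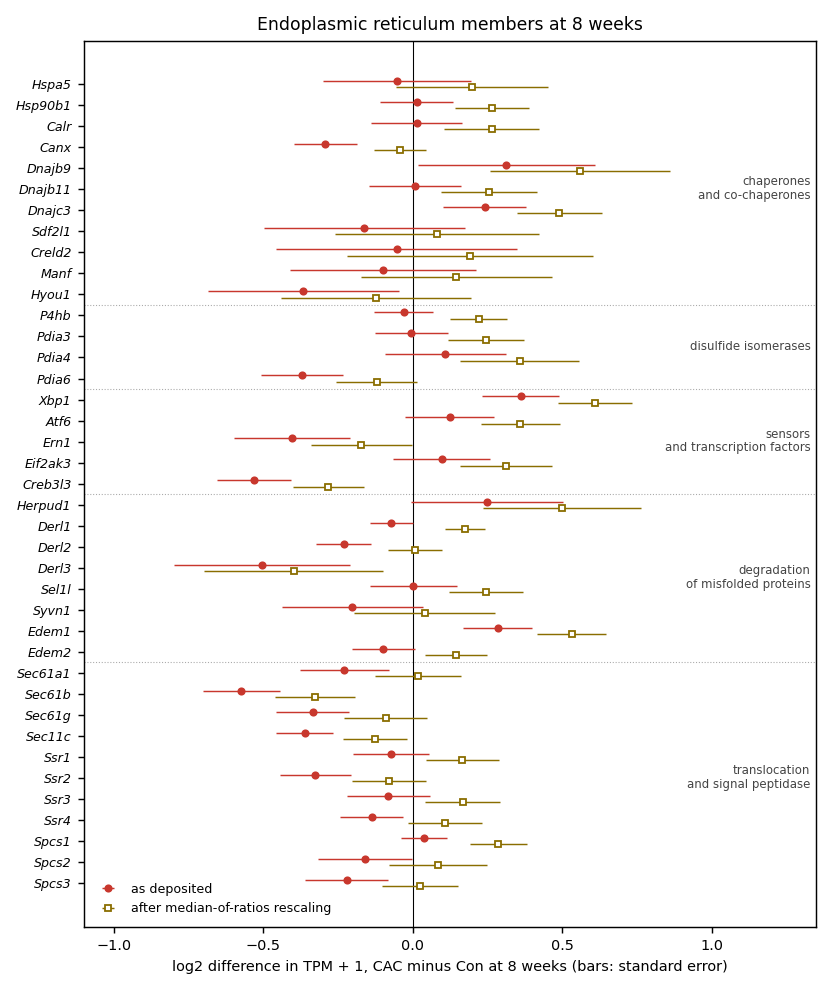
Log2 difference in TPM + 1 between 7 CAC and 5 Con libraries at 8 weeks for each member (horizontal axis), grouped by role, with bars for 1 standard error; filled circles are as deposited and open squares after median-of-ratios rescaling. Rescaling moves each point to the right by about the -0.21 shift of the median gene, and Xbp1 and Edem1 are the members to the right of 0 that were called on both scales.

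At earlier weeks few members were called. At 2 weeks 0 of 39 were called in CAC against Con, with 0.00822% of all genes called higher and 0% lower by limma, and 5 members had an unadjusted p under 0.05. These 5 were all higher in CAC, the smallest p values being those of Sec61g (0.47, 95% interval 0.21 to 0.74, limma adjusted p = 0.21), Derl2, Ssr2 and Sec61b. The share of all genes at an unadjusted p under 0.05 is not given here or below. Counts at that threshold are therefore not read as results about the members. At 4 weeks Xbp1 was the 1 member called (1.3% of all genes higher, 0.609% lower). At 6 weeks Xbp1 was called higher and Canx lower (5% and 10.3% of all genes), and after rescaling P4hb, Derl1, Edem2, Ssr4 and Xbp1 were called higher and 0 lower (8.5% and 5.82%).

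Sec61g, Derl2, Ssr2 and Sec61b, which had the smallest p values at 2 weeks, were all called lower in CAC against Con at 8 weeks (35.3% of all genes). Sec61b in CAC at 2 weeks held 82.0, 83.2, 93.8, 79.4 and 79.9 TPM, above all 5 Con libraries (62.8 to 71.7 TPM). The linear trend of CAC minus Con over the weeks, per 2 weeks, was called downward in 6 members (12.3% of all genes) and upward in 0 (3.35%). All 11 translocation genes had a slope below 0, and the median slope of all tested genes, -0.05, was below 0 as well. The share of all genes with a slope below 0 was not counted.

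The slope was -0.26 ± 0.06 for Sec61b (limma adjusted p = 0.0019), -0.24 ± 0.06 for Sec61g (limma adjusted p = 0.0025), -0.17 ± 0.04 for Derl2 (limma adjusted p = 0.0057) and -0.21 ± 0.06 for Ssr2 (limma adjusted p = 0.0057). Sec11c and Creb3l3 were the other 2, and the call of Creb3l3 was lost without Con at 2 weeks replicate 1 or CAC at 2 weeks replicate 2 (adjusted p up to 0.075). After rescaling Sec61b and Sec61g were still called downward (-0.21 and -0.19, limma adjusted p = 0.025 and 0.0496), with Atf6 and Edem1 now called upward (5.53% of all genes downward and 5.56% upward). Without the pancreatic libraries 4 were called downward, among them Sec61b and Sec61g (5.56% of all genes downward and 1.87% upward), and with both changes 0 members were called, with 2.17% of all genes downward and 2.79% upward. CAC at 2 weeks itself includes 2 pancreatic libraries, replicates 1 and 4.

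NCAC livers showed 0 of 39 members called against Con at each of the 4 weeks by limma, when 0% of all genes were called at 2, 4 and 6 weeks and 0.0247% higher and 0.156% lower at 8 weeks. The number with an unadjusted p under 0.05, for which no share of all genes is given, was 1 at each week. At 2 weeks it was Herpud1, with 417, 320, 262, 291 and 316 TPM in NCAC against 94.1, 156, 159, 206 and 264 TPM in Con (0.93 ± 0.28, limma adjusted p = 0.33). One Con library lay above the lowest NCAC library and the rest were below all of them.

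Between the tumour-bearing arms, 0 members were called at 2 weeks (0% of all genes in each direction; 7 at an unadjusted p under 0.05) and 0 at 4 weeks (1.11% higher and 0.156% lower; 1 at an unadjusted p under 0.05). These percentages refer to adjusted calls, and no share of all genes at the unadjusted threshold is given. At 6 weeks P4hb and Xbp1 were called higher and Derl2 lower in CAC than in NCAC (6.55% and 5.54% of all genes). The Derl2 difference was -0.31 ± 0.10 (limma adjusted p = 0.032). It was not called after rescaling (-0.27, limma adjusted p = 0.051), nor without NCAC replicate 1, 2 or 3 or CAC replicate 1, 3 or 5 (adjusted p up to 0.088).

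At 8 weeks 0 were called higher and 8 lower as deposited (5.09% and 43.1% of all genes), Creb3l3, Canx, Sec61b and Derl1 having the smallest p values. After rescaling 7 were called higher (12.3% of all genes) and 0 lower (13%), so the direction of the set in this comparison rests on the scale. Derl1, a second derlin, was itself -0.22 as deposited (limma adjusted p = 0.011) and 0.09 after rescaling, and its call was lost without NCAC replicate 3 (limma adjusted p = 0.076). These comparisons share the CAC libraries with those against Con and are not independent of them. In mock-injected liver 0 members were called between 8 and 2 weeks (0.271% of all genes higher and 0.0247% lower), and 7 had an unadjusted p under 0.05, all higher at 8 weeks. The share of all genes at that unadjusted threshold is not given, so the 7 are not read as a result about the members.

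**Figure D3:**
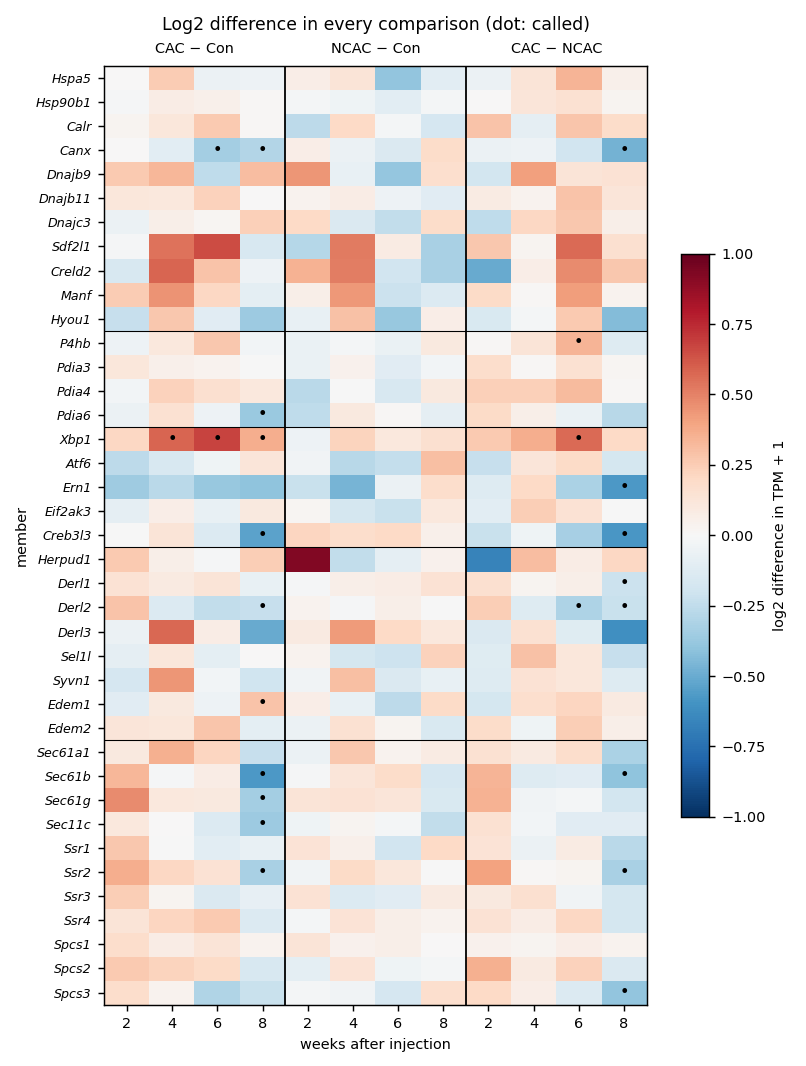
Log2 difference in TPM + 1 (colour, red higher and blue lower) of each member (rows, by role) in CAC minus Con, NCAC minus Con and CAC minus NCAC at 2, 4, 6 and 8 weeks (columns), as deposited, with a dot where limma called the member. The Xbp1 row has dots at 4, 6 and 8 weeks against Con, no member has a dot in NCAC minus Con, and 8 members have dots for lower values in each of the 8-week CAC comparisons.

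The stress-induced chaperones varied widely between animals of a group. This pattern, and the genes named for it, were chosen after the values were seen, and no test is given. Creld2, a secreted isomerase-like stress protein, had a coefficient of variation of 99.6% in CAC at 6 weeks, 98.7% in CAC at 8 weeks and 88.4% at 4 weeks. In the other groups it ran from 12.6% (CAC at 2 weeks) to 77.2% (NCAC at 2 weeks), and the 4 Con groups from 22.5% to 54.3%, so wide spread was not limited to CAC. Xbp1 varied by 19.8% and 10.1% in CAC at 6 and 8 weeks.

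One CAC library in each of weeks 4, 6 and 8 stood far above the others of its group. Hspa5 held 746 TPM in CAC at 4 weeks replicate 4, against 224 to 288 TPM in the other 4 libraries of the group. It held 593 TPM in replicate 3 at 6 weeks (204 to 290 TPM in the other 4) and 589 TPM in replicate 5 at 8 weeks (166 to 316 TPM in the other 6). Each was at least 2.31 times the median of its group's other libraries, and in the 59 remaining libraries of the study Hspa5 reached 471 TPM at most.

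Creld2 held 135, 147 and 158 TPM in these 3 libraries, from 4.27 to 5.38 times the median of the others in their groups. In all 3, 16 members exceeded every other library of their group, among them Hspa5, Hsp90b1, Dnajb11, Sdf2l1, Manf, Hyou1, Pdia3, Pdia4, Syvn1 and Edem1, and 9 members did so in none. Over the set, 19 members were the highest of their group in the first library, 27 in the second and 23 in the third. Of all 12160 tested genes 1.86% exceeded every other library of their group in all 3, and 14.1%, 19.1% and 12.1% did so in the single libraries. Xbp1 was 0.987, 0.846 and 0.984 times the others' median, and Creb3l3 0.881, 0.810 and 0.991 times. Herpud1 was 1.40, 0.486 and 0.913 times that median, and in the second library it lay below every other library of the group. Dnajb9 was 4.15, 1.03 and 1.83 times that median.

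The same 3 libraries held the lowest levels of Dbp, an output gene of the circadian clock, among all 62, at 9.86, 2.84 and 3.88 TPM against 16.6 to 173 TPM in the other 59. They also held the 3 highest levels of Ddit3 (CHOP), a transcription factor of severe reticulum stress, at 15.7, 11.0 and 9.95 TPM against 2.44 to 8.54 TPM elsewhere. Their summed acinar markers were 7.56, 9.24 and 7.97 TPM. Arntl, another clock gene, held 4.63, 19.0 and 9.58 TPM in them, against 0.546 to 16.5 TPM in the other 59. The next lowest Dbp levels were 16.6 TPM in CAC at 2 weeks replicate 5 and 17.5 TPM in Con at 2 weeks replicate 1. Those libraries held 248 and 265 TPM of Hspa5, 26.6 and 24.9 TPM of Creld2, and 12.8 and 16.5 TPM of Arntl. The labels used here give no sampling hour or animal condition for single livers, and the part of either in these levels was not tested.

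**Figure D4:**
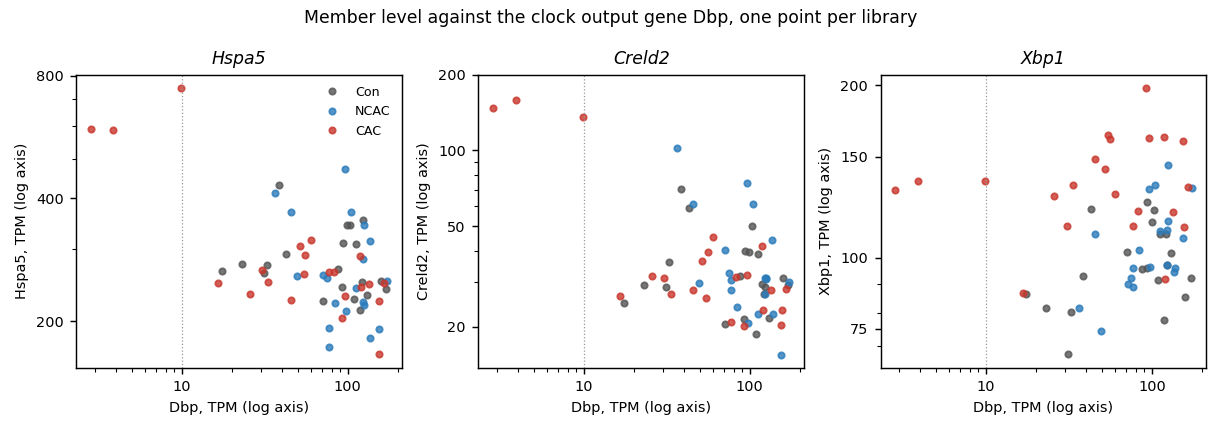
Level of Hspa5, Creld2 and Xbp1 in TPM (vertical log axes) against Dbp in TPM (horizontal log axis), 1 point for each of the 62 libraries, coloured by arm, with a dotted line at 10 TPM of Dbp. The 3 CAC libraries left of the line hold the highest Hspa5 and the highest Creld2 levels, while their Xbp1 lies within the range of the other CAC libraries.

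Leaving these 3 libraries out, an alternative added after their values were seen, kept Xbp1 called at 4, 6 and 8 weeks (0.58, 0.72 and 0.37; limma adjusted p = 0.027, 0.00068 and 0.026). At 8 weeks 8 members were then called lower and 1 higher against Con, Edem1 being no longer called (0.24, limma adjusted p = 0.093). Against NCAC at 8 weeks the number called lower rose from 8 to 13. As deposited, 43.1% of all genes were called lower in that comparison. The share of all genes called without these 3 libraries was not counted, so these counts are not read as results about the members.

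Which members peaked in the same animal can be read from the 12 groups. The highest library of the group for Hspa5 was also the highest for Hsp90b1, Dnajb11 and Manf in 11 of 12 groups and for Creld2, Hyou1, Pdia3 and Pdia4 in 10. Of all tested genes 0.148% shared it in at least 10 groups, and the median gene in 2. It was shared in 7 groups by Canx and Dnajc3, in 3 by Xbp1, in 2 by Herpud1, Creb3l3 and Ern1, and in 1 by Derl2. Of the genes whose promoters hold an ERSE match, printed above, the shared count ran from 3 (Derl3) to 11 (Hsp90b1). Manf and Hyou1 have no promoter entry, and Pdia3 and Pdia4 hold no match in the window.

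The pathway beyond these members was read from lists of 93 further genes, 91 of them tested. In CAC against Con they gave 0 calls at 2 weeks, 1 higher at 4 weeks, 10 higher and 3 lower at 6 weeks, and 7 higher and 20 lower at 8 weeks, against the shares of all genes given above. After rescaling the 8-week counts were 19 higher and 4 lower. NCAC against Con gave 0 at 8 weeks.

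Among oxidative folding and prolyl isomerase genes 3 of 15 were called higher and 4 lower at 8 weeks as deposited (5.87% and 35.3% of all genes). After rescaling 6 were called higher and 0 lower (12.8% and 13.9%), and without the pancreatic libraries 4 higher and 1 lower (4.84% and 34.3%). Qsox1, a sulfhydryl oxidase that makes disulfides, rose at 4, 6 and 8 weeks, by 0.98 ± 0.13, 1.26 ± 0.13 and 1.14 ± 0.12 (limma adjusted p = 2.5e-07, 1.1e-10 and 9.0e-11), with means at 8 weeks of 253 TPM in CAC and 114 TPM in Con. Prdx4, a peroxiredoxin of the lumen, and Txndc5, a disulfide isomerase, were called lower as deposited (-0.40 and -0.56) but not after rescaling.

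Of 7 outputs of the PERK branch 2 were called higher at 8 weeks and 0 lower, beside 5.87% and 35.3% of all genes. The median log2 difference of the list was 0.04, and Atf4, Ddit3, Ppp1r15a, Trib3 and Atf3 were not called. Chac1, a glutathione-degrading enzyme induced through ATF4 and CHOP, rose by 1.55 ± 0.40 (limma adjusted p = 0.0016) and Asns, asparagine synthetase, by 0.55 ± 0.21 (limma adjusted p = 0.028), both also called after rescaling. Creb3l2, a further relative of ATF6, was the 1 of 5 genes in its list called higher (0.74 ± 0.16, limma adjusted p = 0.0002). In that list 0 genes were called lower, beside the same shares of all genes, and its median log2 difference was -0.08.

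In the other lists the shares called lower as deposited were at or under the 35.3% of all genes. Of 12 further degradation genes 1 was called higher and 3 lower, Vcp, the ATPase that extracts proteins from the membrane, by -0.68 ± 0.12 and its cofactor Nploc4 by -0.48 ± 0.11 (limma adjusted p = 1.2e-05 and 0.00082). Both were also called lower after rescaling, when the list held 4 higher and 2 lower. Of 15 glycosylation genes 0 were higher and 5 lower, led by the glucosidase Mogs (-0.64 ± 0.13, limma adjusted p = 0.00013), and of 21 genes of vesicle coats and cargo receptors 0 were higher and 4 lower, led by Sar1b (-0.68 ± 0.15, limma adjusted p = 0.00019), the GTPase used for large lipoprotein cargo. Mogs and Sar1b were also called lower after rescaling, when the glycosylation list held 1 higher and 1 lower and the coat and receptor list 2 higher and 1 lower. Of 16 signal recognition and insertion genes 0 were higher and 4 lower, led by Emc3 (-0.24 ± 0.06, limma adjusted p = 0.0015). After rescaling 3 genes of that list were called higher and 0 lower, so its direction rests on the scale.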

How the data were processed

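RNA from liver was extracted with Trizol and sequenced from TruSeq stranded mRNA libraries on an Illumina NovaSeq, per the labels' protocols. The authors deposited TPM per gene for 62 libraries; the build was mm10, per the submitters' processing notes, and the sources used here do not give the aligner or quantifier. Without counts the depth is unknown, and replicate number limits precision.

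Tests used log2(TPM + 1), so fold changes of low genes are understated. The 12160 genes that reached 1 TPM in 5 or more libraries were fitted over 12 group means with limma 3.58.1 in R 4.3.3 (empirical Bayes with trend). P-values were adjusted by Benjamini-Hochberg over all tested genes within each of 14 comparisons, and a gene was called at an adjusted p under 0.05 with no minimum fold. The fit was tested on simulated data. Tables and figures used Python 3.11.15, pandas 2.3.3 and matplotlib 3.10.9.

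Alternatives were a pseudocount of 0.1, no filter, median-of-ratios rescaling, quantile normalization, fits within each week, a replicate block, leaving out each library, the 9 pancreatic or the 12 pancreatic and muscle libraries (at least 100 TPM of Ctrb1, at least 10 TPM of Acta1), and, added after values were seen, libraries under 10 TPM of Dbp. Members described singly were Hspa5, Xbp1, Dnajb9, Herpud1, Creb3l3 and Sec61b plus the 3 with the smallest p per role class in CAC against Con at 8 weeks, and up to 4 per direction elsewhere; for the further lists up to 3 called genes are named. Sec61g, Atf6, Creld2 and the members named for shared highest libraries were added after their values were seen. The members and lists were chosen with earlier results of these data known.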

Additional observations from a re-analysis of the deposited data

Results flagged for a closer look

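Among 18 members in 12 groups, 216 sets of libraries in all, 17 held a library far from the others of its group by Dixon's ratio; chance alone flags about 1 in 20 such sets. Among the chaperones, Hspa5 stood high in CAC at 4 weeks replicate 4 (746 TPM, next 288 TPM) and in CAC at 2 weeks replicate 4 (264 TPM, next 248 TPM). Dnajb9 stood high in the same CAC library at 4 weeks (215 TPM, next 65.3 TPM) and in NCAC at 8 weeks replicate 3 (100.5 TPM, next 51.5 TPM). Canx stood low in NCAC at 4 weeks replicate 4 (72.9 TPM, next 123 TPM) and in CAC at 4 weeks replicate 2 (83.0 TPM, next 115 TPM), and Dnajc3 in CAC at 8 weeks replicate 3 (57.4 TPM, next 92.0 TPM).

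In Con at 8 weeks, replicate 5 was low in P4hb (674 TPM, next 788 TPM) and Pdia6 (119 TPM, next 166 TPM), replicate 3 was low in Xbp1 (85.2 TPM, next 110 TPM), and replicate 1 was high in Derl2 (26.5 TPM, next 19.7 TPM). Ern1 was low in NCAC at 4 weeks replicate 4 (4.27 TPM, next 11.3 TPM), where Derl3 was high (2.73 TPM, next 0.878 TPM). Derl3 was also high in CAC at 4 weeks replicate 5 (2.80 TPM, next 1.15 TPM). In CAC at 2 weeks replicate 3, Derl2 was low (15.7 TPM, next 19.7 TPM) and Sec61b high (93.8 TPM, next 83.2 TPM). Ssr2 was high in CAC at 8 weeks replicate 5 (78.5 TPM, next 55.1 TPM).

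For 6 members the slope of the CAC minus Con difference per 2 weeks was called downward by limma as deposited, beside 12.3% of all tested genes. The slopes were -0.26 for Sec61b, -0.24 for Sec61g, -0.21 for Ssr2, -0.19 for Creb3l3, -0.17 for Derl2 and -0.15 for Sec11c (limma adjusted p from 0.0019 to 0.023). After rescaling only Sec61b and Sec61g were still called downward, and with rescaling and without the pancreatic libraries no member was.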

How the results depend on the processing

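The counts of called members changed with the scale, with the pancreatic libraries and with single libraries. Causes of changes were not tested. Where no share of all genes is given above, the counts are not read as results about the members. In CAC against Con at 8 weeks, 2 higher and 8 lower as deposited became 6 and 0 with median-of-ratios rescaling or quantile normalization, 1 and 4 with weeks fitted separately, 1 and 5 without pancreatic or without pancreatic and muscle libraries, and 5 and 1 without pancreatic libraries and with rescaling; the number higher was 1 with no filter and without libraries low in Dbp. At 6 weeks, 1 higher became 5 with rescaling, 6 with quantile normalization, 4 within weeks, 2 without pancreatic libraries and 5 with both changes, and 1 lower became 0 with no filter, rescaling, quantile normalization, without pancreatic and muscle libraries, and with both changes. At 4 weeks 1 higher became 0 within weeks, and at 2 weeks 0 became 2. In CAC against NCAC at 8 weeks, 0 higher became 7 with rescaling and 8 with quantile normalization or both changes, and 8 lower became 0 with each of these, 4 within weeks, 2 without pancreatic and muscle libraries and 13 without libraries low in Dbp. At 6 weeks 2 higher became 1 without pancreatic and muscle libraries, and 1 lower became 0 with rescaling, without pancreatic libraries, without pancreatic and muscle libraries, with both changes and without libraries low in Dbp; at 2 weeks 0 higher became 1 within weeks. The trend's 0 upward became 2 with rescaling or quantile normalization, and its 6 downward became 2 with rescaling, 1 with quantile normalization or without pancreatic and muscle libraries, and 0 with both changes. Leaving out 1 library gave 0 to 1 higher at 4 weeks, 1 to 2 higher and 0 to 2 lower at 6 weeks, and 0 to 3 higher and 3 to 8 lower at 8 weeks against Con; 1 to 2 higher and 0 to 1 lower at 6 weeks and 6 to 12 lower at 8 weeks against NCAC; and 5 to 6 downward in the trend. NCAC against Con and Con over time gave 0 in each setting run.

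Replicate numbers did not pair the samples: over 60 same-numbered pairs the correlations of deviations ran from -0.37 to 0.36 (median -0.04), and 10 were above 0.1. With the replicate block, CAC against Con at 8 weeks gave 1 higher and 4 lower, and P4hb was 0.036.

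Signs of single members changed as follows in CAC against Con at 8 weeks. Hspa5 became 0.20 with rescaling, 0.30 with quantile normalization, 0.022 without pancreatic (and muscle) libraries and 0.30 with both changes, and leaving out 1 library gave -0.23 to 0.074. P4hb became 0.22 with rescaling, 0.11 with quantile normalization and 0.27 with both changes, and leaving out 1 library gave -0.12 to 0.044. Quantile normalization gave 0.060 for Canx, 0.0055 for Pdia6, 0.018 for Derl2 and 0.017 for Ssr2, and rescaling gave 0.0068 for Derl2. Both changes gave 0.058 for Hyou1, 0.090 for Derl3, 0.061 for Sec11c and 0.13 for Ssr2. Herpud1 became -0.0098 without pancreatic (and muscle) libraries, and Pdia4 became -0.028 without libraries low in Dbp, with -0.028 to 0.23 on leaving out 1 library. Against NCAC at 8 weeks, Derl1 became 0.088 with rescaling, 0.16 with quantile normalization and 0.088 with both changes, Derl2 became 0.068, 0.080 and 0.068, and Ssr2 became 0.032 with quantile normalization.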

Other observations

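Some libraries stood at the extreme of the whole study for many members. NCAC at 4 weeks replicate 4, which held 806 TPM of Ctrb1, was the lowest of all 62 libraries for 12 members. Con at 8 weeks replicate 2, with 1906 TPM of Ctrb1 and 226 TPM of the muscle actin Acta1, was the highest for 5 members (Sec61b, Sec61g, Sec11c, Ssr4 and Edem2). CAC at 6 weeks replicate 3, which held 2.84 TPM of Dbp, was the highest for 10 members.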
